A study of Mus musculus with 4 samples.

Results

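The genes described here build and control the mitotic spindle: 46 genes for the spindle, the kinetochore, the spindle checkpoint, chromosome condensation and cytokinesis, among them the proliferation markers Mki67 and Top2a. They were chosen by symbol, and all 46 were found among the 20299 genes of the deposited files. Strand-specific libraries were made from gonads of mouse fetuses of 15.5 days post coitum (dpc), with 1 library for each of 4 groups: male germ cells, female germ cells, male gonadal somatic cells and female gonadal somatic cells. All fetuses came from CF1 females mated with TgOG2 males. The TgOG2 transgene expresses green fluorescent protein (GFP) from the Oct4 promoter, so flow sorting gave GFP-positive germ cells and GFP-negative cells of every other kind in the gonad. Both fractions of both sexes carry the transgene's background, and no group received a treatment. The labels do not say how many fetuses were pooled for a library.

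In mitosis, condensin compacts the chromosomes, kinetochores assemble on centromeres that carry the histone variant CENP-A, and the NDC80 complex ties them to spindle microtubules. Unattached kinetochores start the spindle checkpoint, in which MAD and BUB proteins hold CDC20 away from the anaphase-promoting complex (APC/C). Once the checkpoint is satisfied, the APC/C marks securin for destruction, separase cuts cohesin, and the central spindle directs cytokinesis. At this fetal age germ cells of the testis have stopped dividing, whereas germ cells of the ovary have entered the prophase of meiosis. Sertoli cells of the fetal testis divide, whereas pregranulosa cells of the fetal ovary are known for expressing the cell cycle inhibitor p27.

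Depth was estimated at 24.9 M (male germ), 17.5 M (female germ), 17.61 M (male somatic) and 24.2 M (female somatic) fragments, with M for 1000000. Levels are given as SPM, the deposited scaled signal per 1000000 after trimmed-mean scaling. In each ratio the interval is an exact conditional binomial 95% interval on estimated fragments, which covers counting error only, because each group is 1 library and the ratio has no replicate check. Of 10 germ cell markers, 8, such as Dazl and Ddx4, were higher in both libraries labelled as germ cells than in both somatic libraries. Nanos3, at 1.01 SPM in female germ and 2.07 in female somatic cells, and Kit, at 29.4 in male germ and 35.9 and 38.8 in somatic cells, were the exceptions. The 10 genes summed to 5574 (male) and 3821 (female) SPM in germ cells and to 71.2 and 50.2 in somatic cells. Meiosis genes summed to 429 (male) and 5132 (female) SPM in germ cells. Of the mitotic genes, 45 of 46 reached 5 SPM in at least 1 library of each comparison. Aurkc was the exception.

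Female somatic cells held the lowest level of most mitotic genes, and female germ cells the highest level of the largest number. Of the 45 genes, 34 (75.6%) were lowest in female somatic cells, against 20.1% of all genes at 5 SPM. Male germ cells were lowest for 8 (17.8%, against 28.1%) and female germ cells for 3 (6.67%, against 32.7%). For 25 genes (55.6%, against 31.2%) the peak was in female germ cells. The counts with a peak in male somatic cells, 11 (24.4%, against 22.3%), and in male germ cells, 9 (20%, against 24.7%), lay near those of all genes. None peaked in female somatic cells, where 21.8% of all genes did. When libraries were scaled by their totals alone, female somatic cells were still lowest for 34 of the 45, and 1 gene was highest there. Summed over all 46 genes, the level was 5078 (male) and 9329 (female) SPM in germ cells and 5976 and 2613 in somatic cells. In RNA from sorted cells in bulk, fewer dividing cells and less RNA per dividing cell cannot be told apart.

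**Figure D1:**
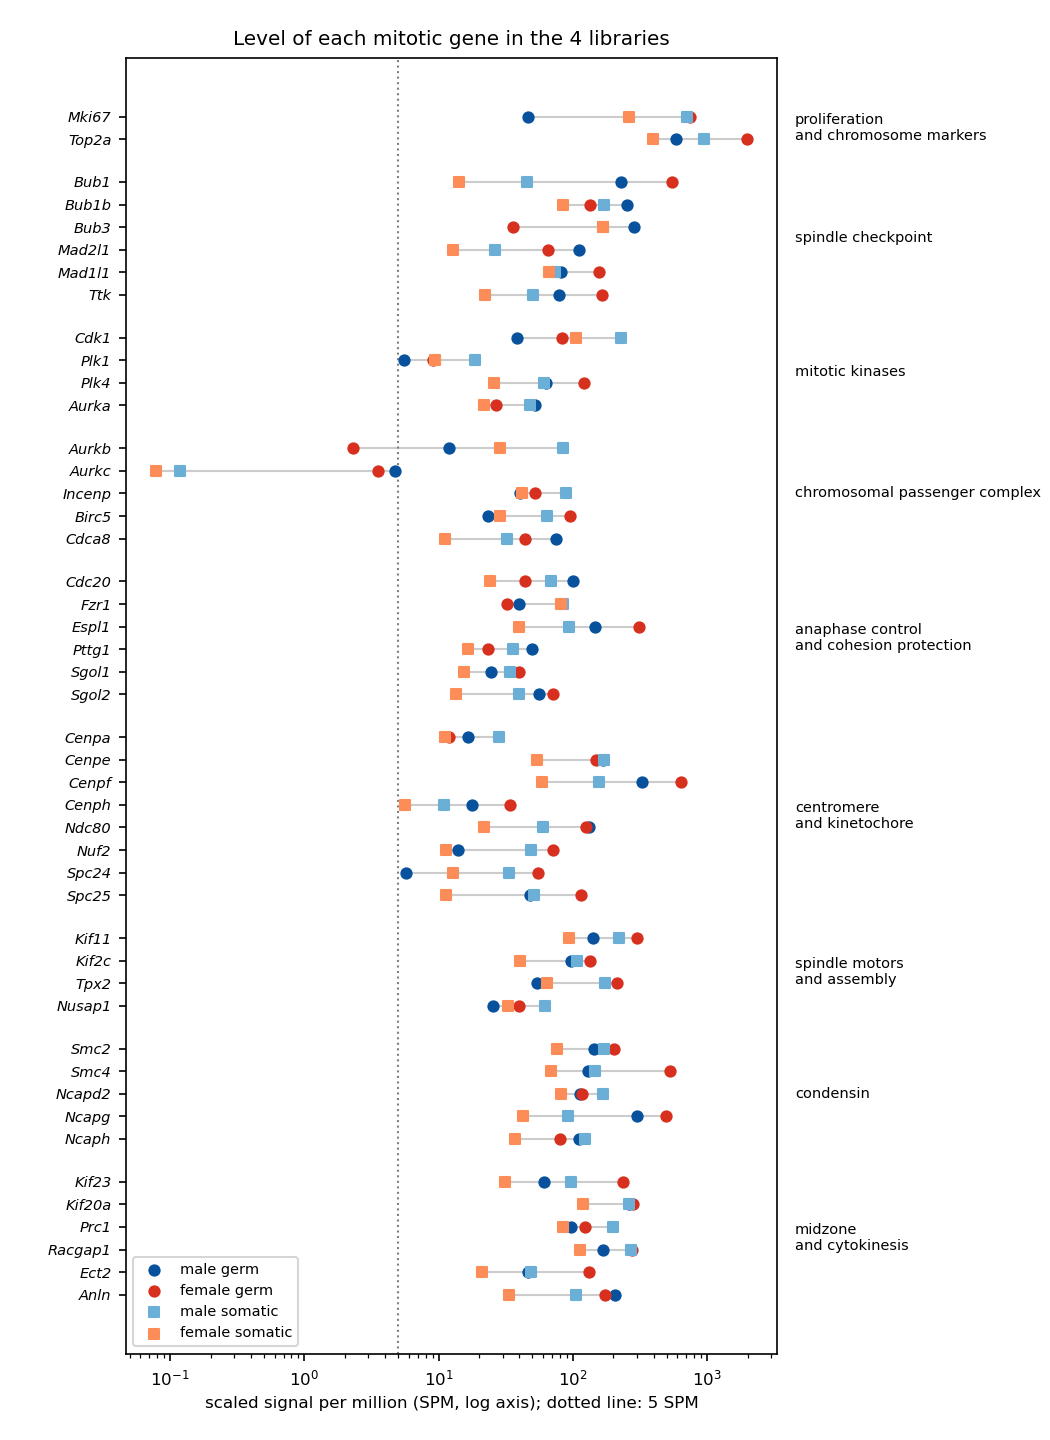
Level of each of the 46 genes in the 4 libraries, in SPM on a log axis, grouped by role; circles are germ cells, squares are somatic cells, and the dotted line is the minimum of 5 SPM. The light orange squares of female somatic cells lie at the left end for 34 of 45 genes, and Aurkc is the only gene under 5 SPM everywhere.

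Between the somatic libraries the mitotic genes were higher in the male almost as a block. Of 45 genes, 45 stood higher in male somatic cells (50.8% of all genes did) and 0 in female (49.2%), and 39 of them by at least 2-fold with at least 5 SPM, against 9.61% of the 11835 genes compared. None stood 2-fold higher in female somatic cells, against 8.26% of all genes. The median log2 ratio of male to female was 1.22 for the 45 genes and 0.01 for all genes. The spread was narrow as well: the interquartile range of the mitotic genes was 0.37 on the log2 scale, against 0.70 for all genes. With library totals alone, which shifted every log2 ratio by -0.13, the median was 1.09 and 30 of the same 39 genes passed 2-fold. The 9 others, Bub1b, Mad2l1, Cdk1, Incenp, Pttg1, Smc4, Ncapd2, Ncapg and Kif20a, then lay between 1.86-fold and 1.996-fold. The direction of Bub3 and Fzr1 turned with totals, and that of Bub3 with upper-quartile scaling.

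The other 6 genes did not reach 2-fold between the somatic libraries. Bub3, the checkpoint's shared adaptor, differed by 1.01-fold (0.959 to 1.06), and Fzr1, the APC/C activator of late mitosis and the G1 phase, by 1.03-fold (0.965 to 1.11). Mad1l1, which anchors MAD2 at kinetochores, differed by 1.11-fold (1.03 to 1.195). These 3 genes thus lay near equality, whereas Nusap1 at 1.902-fold (1.74 to 2.09), Cenph at 1.94-fold (1.55 to 2.43) and Plk1 at 1.97-fold (1.66 to 2.35) lay just under the threshold. At 4-fold, 2 genes were male-higher (3% of all genes) and 0 female-higher (3.17%). These largest ratios belonged to the NDC80 complex genes Spc25 and Nuf2, with 4.499-fold (3.93 to 5.17) and 4.31-fold (3.76 to 4.95).

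Other genes of the same pathways gave a graded picture. Of 67 measured genes, 33 (49.3%) passed 2-fold towards male somatic cells, against 9.61% of all genes, and 0 towards female, against 8.26%. Among 23 further spindle and midzone genes 18 passed, with a median log2 ratio of 1.22. Among 19 constitutive centromere and MIS12/KNL1 genes 8 passed (median 0.94), and among 9 checkpoint and ROD-ZW10-ZWILCH genes 6 passed (median 1.11). Condensin II, which acts in the nucleus before its sister complex, had 1 of 3 genes past 2-fold (median 0.29). None of 13 APC/C subunit genes passed, and their median was -0.004, near the 0.01 of all genes. Lists of 3, 9 and 13 genes are too short to set their counts against the 9.61% of all genes.

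**Figure D2:**
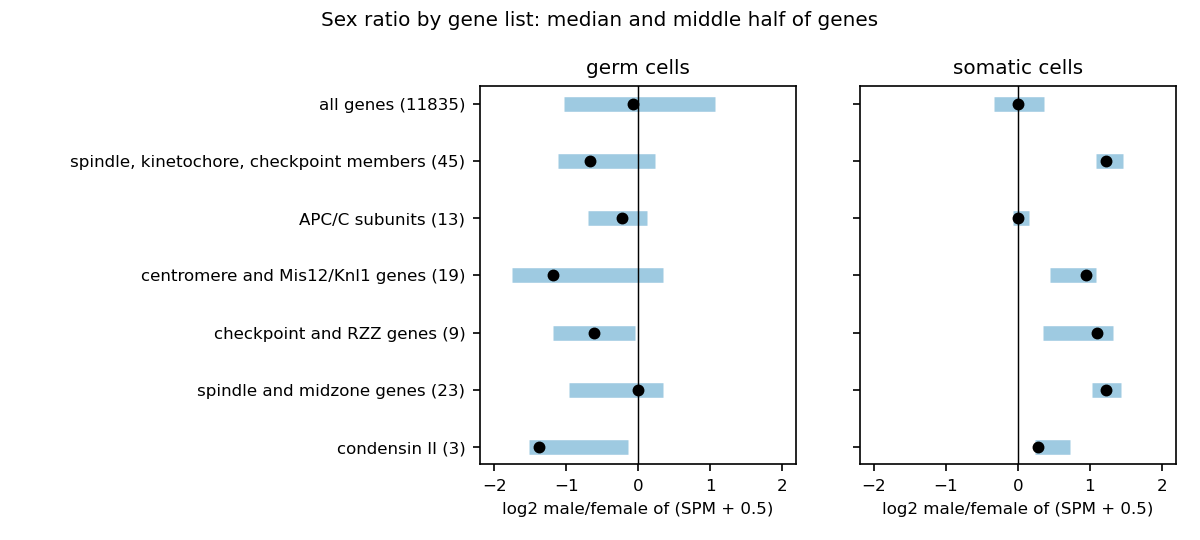
Median (point) and interquartile range (bar) of the log2 male to female ratio of SPM + 0.5 for all genes, the mitotic genes and 5 further lists, in germ cells (left) and somatic cells (right), with the number of genes in parentheses. In somatic cells the mitotic genes lie at 1.22 with a short bar while the APC/C subunits lie at -0.004. In germ cells the mitotic genes lie at -0.67 with a longer bar than in somatic cells. In both panels the bar of all genes is longer than that of the mitotic genes.

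Markers of several cell types also differed between the somatic libraries. Stroma markers, all 6 male-higher by 2-fold or more, summed to 15970 SPM in male and 5949 in female somatic cells. Erythroid markers summed to 30280 and 11310 SPM, with 3 of 8 genes 2-fold or more above the female level (Hba-a1, Hbb-b1 and Alas2) and 2 of 8 the other way (Klf1 and Gata1). Both sums had a male to female ratio of 2.68, and most of both erythroid sums came from Hba-a1 and Hbb-b1. Sertoli markers, all 6 male-higher, summed to 731 and 32.7 SPM, and pregranulosa markers, all 6 female-higher, to 106 and 1038, with Irx3 at 0 in the male. Endothelial sums were 172 and 245 SPM, with 1 of 5 genes 2-fold or more above the female level (Cdh5) and 1 of 5 the other way (Kdr). Leukocyte sums were 25.7 and 13.3 SPM, with 4 of 5 genes male-higher and most of both sums from Csf1r, at 18.65 and 7.47. Cdkn1b, which encodes p27, was listed at 55.6 (male) and 255 (female) SPM in somatic cells. The part of cell composition in the difference of the mitotic genes was not tested.

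Many mitotic genes share 2 promoter elements, the cell cycle genes homology region (CHR), at which repressor and activator complexes of the cell cycle bind, and the CCAAT box, bound by the factor NF-Y. RefSeq promoters (build GRCm38.p6) matched 40 of the 46 genes. The bases printed are the 250 before the start site of Mki67 (chr7:135716380-135716629, minus strand), Top2a (chr11:99024190-99024439, minus strand), Cdk1 (chr10:69352913-69353162, minus strand), Cdc20 (chr4:118437344-118437593, minus strand) and Bub3 (chr7:131560120-131560369, plus strand). They were chosen because these genes carry the results that follow: the first 3 were higher in female germ cells, Cdc20 and Bub3 in male germ cells, and Bub3 did not differ by 2-fold between somatic cells. Capitals mark each CHR match (TTTGAA or TTCGAA on either strand) and each CCAAT match (on either strand).
Mki67: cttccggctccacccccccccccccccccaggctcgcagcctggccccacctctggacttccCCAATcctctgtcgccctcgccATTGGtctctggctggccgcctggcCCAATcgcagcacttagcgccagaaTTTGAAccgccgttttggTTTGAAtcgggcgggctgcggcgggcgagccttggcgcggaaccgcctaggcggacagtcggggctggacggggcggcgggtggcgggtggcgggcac
Top2a: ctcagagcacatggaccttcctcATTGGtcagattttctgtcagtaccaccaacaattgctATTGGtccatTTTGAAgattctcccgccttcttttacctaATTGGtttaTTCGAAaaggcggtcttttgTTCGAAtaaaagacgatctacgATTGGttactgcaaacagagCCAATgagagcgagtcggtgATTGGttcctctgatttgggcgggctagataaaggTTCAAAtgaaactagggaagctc
Cdk1: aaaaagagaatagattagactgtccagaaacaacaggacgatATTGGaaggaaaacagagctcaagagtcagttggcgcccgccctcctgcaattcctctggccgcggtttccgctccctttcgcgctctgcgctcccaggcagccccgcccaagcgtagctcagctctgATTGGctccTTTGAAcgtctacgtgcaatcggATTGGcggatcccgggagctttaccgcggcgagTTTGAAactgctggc
Cdc20: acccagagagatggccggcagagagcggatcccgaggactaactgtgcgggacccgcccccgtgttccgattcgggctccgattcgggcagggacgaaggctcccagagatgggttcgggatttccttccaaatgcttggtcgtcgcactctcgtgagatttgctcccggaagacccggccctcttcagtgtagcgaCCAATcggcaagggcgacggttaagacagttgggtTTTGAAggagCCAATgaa
Bub3: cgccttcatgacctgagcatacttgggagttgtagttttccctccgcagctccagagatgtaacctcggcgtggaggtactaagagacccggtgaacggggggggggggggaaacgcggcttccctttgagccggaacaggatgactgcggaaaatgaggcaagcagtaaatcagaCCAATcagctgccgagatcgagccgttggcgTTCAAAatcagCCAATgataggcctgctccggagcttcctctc

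All 5 printed promoters hold both elements, and Top2a holds 4 CHR and 6 CCAAT matches. Over windows of 300 bases, from 250 before to 50 after the start, the 40 genes have 45 promoters. A CHR match lay in 30 of these (66.7%), against 19.2% of 32851 promoters in the table. A CCAAT match lay in 33 (73.3%, against 37.4%), and both lay in 27 (60%, against 7.52%). The 70 promoters of the other pathway genes held the 2 elements in 51.4% and 54.3%. Neither element was found at Nuf2, Nusap1, Ncaph, Plk4, Mad1l1, Mad2l1, Pttg1 and Birc5. A match of letters is a description of the window and not a binding site. Both directions of the germ cell difference occurred with and without the element: of the 27 genes with a CHR match 19 were higher in female and 8 in male germ cells, and of the 12 without, 7 and 5. In somatic cells the median log2 ratio was 1.25 with a CHR match and 1.10 without. Aurkc, at or under 3 fragments in both somatic libraries, is left out of these counts.

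**Figure D3:**
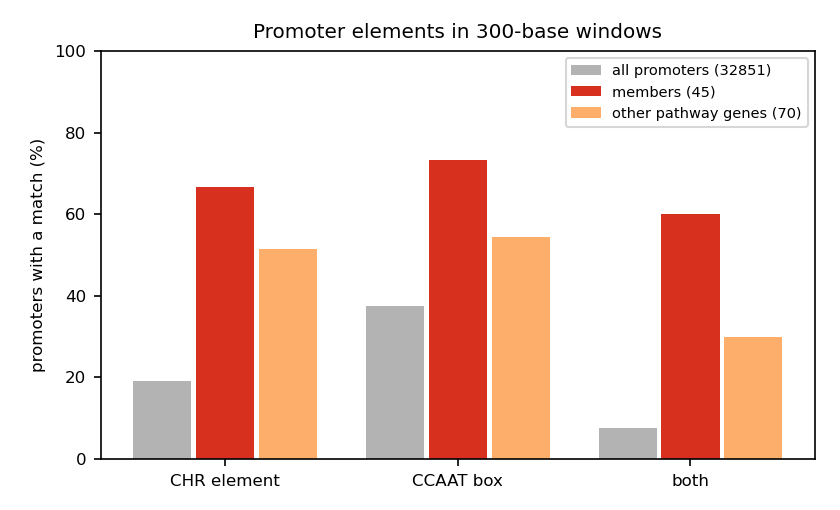
Share of 300-base promoter windows with a CHR match, a CCAAT match or both, for all 32851 promoters, the 45 promoters of the mitotic genes and the 70 of the other pathway genes. The mitotic genes have both elements in 60% of windows, against 7.52% of all promoters.

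Germ cells of the 2 sexes did not show such a block. Most mitotic genes were higher in female germ cells, but 4 genes passed 2-fold towards male germ cells: Bub3 and Aurkb, each by more than 5-fold, and Cdc20 and Pttg1 by little more than 2-fold. By at least 2-fold, 15 of 45 genes stood higher in female germ cells, against 26.3% of the 11766 genes compared, and 4 in male germ cells, against 26.8%. By direction alone 31 were higher in the female (51.7% of all genes) and 14 in the male (48.3%). The median log2 ratio of male to female was -0.67 against -0.07 for all genes. Ratios ranged from -3.996 to 2.96, and the interquartile range was 1.35, compared with 2.11 for all genes. Scaling mattered here: library totals alone shifted every log2 ratio by 0.16 towards the male and upper-quartile scaling by 0.28. The 2-fold counts became 11 female-higher and 6 male-higher with totals, and 9 and 8 with the upper quartile, and the median moved to -0.51 and -0.40. The share of all genes past 2-fold was not counted under these scalings, so these counts cannot be set against all genes. Ttk, Cdk1, Espl1 and Kif11 then fell short of 2-fold with either scaling, and Bub1 and Spc25 with the upper quartile. Bub1b and Aurka passed as male-higher with either scaling, and Mad2l1 and Cdca8 with the upper quartile. Kif20a and Ncapd2 turned direction with both.

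**Figure D4:**
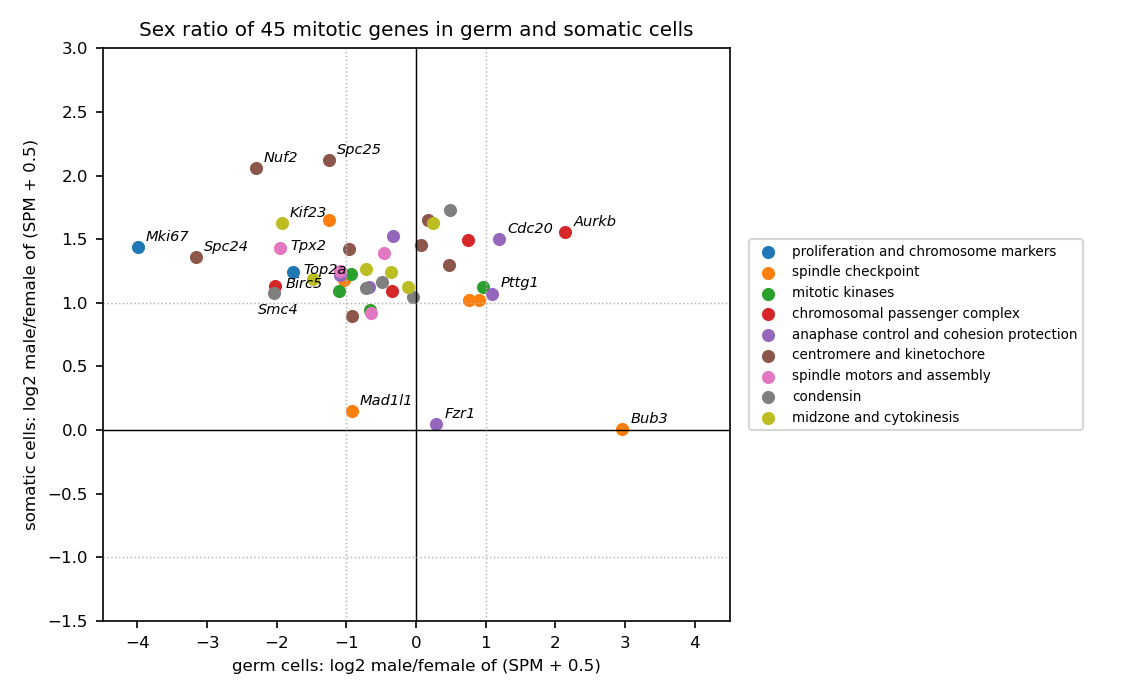
Log2 male to female ratio of SPM + 0.5 in germ cells (horizontal) against somatic cells (vertical) for 45 mitotic genes, coloured by role; dotted lines mark 2-fold, and genes far from the rest are named. Vertically the genes crowd between 0.90 and 2.12 except Mad1l1, Fzr1 and Bub3, whereas horizontally they spread from -3.996 to 2.96; Kif20a and Ncapd2, close to 0, change side in germ cells under the other scalings, and Bub3 and Fzr1 in somatic cells with library totals.

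Of the 2 proliferation markers, Mki67 set male germ cells apart from the other 3 libraries, and Top2a did not. Mki67 (mm9, chromosome 7, 142881470 to 142908062), whose product coats mitotic chromosomes, stood at 46.5 (male) and 749 (female) SPM in germ cells and at 709 and 262 in somatic cells. Male germ cells were the low library, 16.1-fold (15.2 to 17.1) below female germ cells and 15.3-fold (14.4 to 16.2) below male somatic cells, while female germ and male somatic cells lay close to each other. Top2a (mm9, chromosome 11, 98854260 to 98885503), the topoisomerase that untangles sister chromatids, stood at 584 (male) and 1995 (female) SPM in germ cells and at 941 and 396 in somatic cells. It was 3.42-fold (3.35 to 3.48) higher in female than male germ cells, and higher in male germ than in female somatic cells.

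Checkpoint genes divided between the sexes within 1 pathway. Bub1 (mm9, chromosome 2, 127625935 to 127657595), the kinase that marks centromeres and recruits the checkpoint, stood at 229 (male) and 545 (female) SPM in germ cells and at 45.8 and 14.2 in somatic cells. Both germ libraries lay above both somatic libraries, and the female germ library was 38.3-fold (34.5 to 42.7) above the female somatic one. Ttk, the kinase that starts the signal, followed the same order at 79.2 (male) and 164 (female) SPM in germ and 50.8 and 22.1 in somatic cells, and was 2.06-fold (1.95 to 2.19) higher in female than male germ cells. Mad1l1 stood at 81.5 (male) and 155 (female) SPM in germ and 74.03 and 66.7 in somatic cells, with female germ cells high and the other 3 libraries close together.

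Bub3 (mm9, chromosome 7, 138703904 to 138715412) ran the other way. It stood at 283 (male) and 36 (female) SPM in germ cells and at 169 and 168 in somatic cells. Female germ cells were the low library, 7.87-fold (7.24 to 8.57) below male germ cells and 4.66-fold (4.28 to 5.09) below female somatic cells. Of the 2 partners of Bub3, the kinase Bub1 was highest in female germ cells. The other, the checkpoint complex protein Bub1b, stood at 252 (male) and 134 (female) SPM in germ and 171 and 83.8 in somatic cells and was, like Bub3, higher in male germ cells, by 1.88-fold (1.79 to 1.97). Mad2l1, the protein that captures CDC20, stood at 111 (male) and 65.4 (female) SPM in germ and 26.4 and 12.8 in somatic cells, 1.69-fold (1.58 to 1.82) higher in male germ cells and 4.19-fold (3.79 to 4.64) higher in male germ than male somatic cells.

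Of the mitotic kinases, Cdk1 and Plk1 were lowest in male germ cells. Cdk1 (mm9, chromosome 10, 68799382 to 68815660), the kinase that drives entry into mitosis, stood at 38.4 (male) and 83.6 (female) SPM in germ cells and at 226 and 106 in somatic cells. Male germ cells lay 2.17-fold (2.005 to 2.36) below female germ cells and 5.89-fold (5.498 to 6.32) below male somatic cells, and the female germ library did not exceed the female somatic one. Plk1, which acts at centrosomes and kinetochores, was low everywhere at 5.56 (male) and 9.11 (female) SPM in germ and 18.7 and 9.46 in somatic cells. Plk4, which starts centriole duplication, stood at 63.1 (male) and 121 (female) SPM in germ and 60.6 and 25.7 in somatic cells, highest in female germ cells. Aurka, the centrosomal Aurora kinase, went against the other kinases at 52.1 (male) and 26.6 (female) SPM in germ and 48.04 and 21.7 in somatic cells and was 1.96-fold (1.76 to 2.18) higher in male than female germ cells.

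The chromosomal passenger complex, which corrects faulty attachments, had subunits with opposite patterns. Its kinase gene Aurkb (mm9, chromosome 11, 68859144 to 68865164) stood at 11.8 (male) and 2.297 (female) SPM in germ cells and at 84.7 and 28.5 in somatic cells. The female germ library was lowest, 5.16-fold (3.72 to 7.51) below male germ cells and 12.4-fold (9.06 to 17.9) below female somatic cells, so both germ libraries lay below both somatic libraries. Aurkc, a paralog known from germ cells, stood at 4.74 (male) and 3.54 (female) SPM in germ cells and at 0.118 and 0.0778 in somatic cells, with 2 fragments in each somatic library. The ratio was 40.1-fold (10.7 to 328) between male germ and male somatic cells and 45.5-fold (11.7 to 373) between the female libraries, both wide because of the 2 fragments. Between the somatic libraries no ratio is given, since both lay under the floor of 3 fragments.

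Birc5, which encodes survivin, stood at 23.2 (male) and 95.6 (female) SPM in germ cells and at 63.8 and 28.9 in somatic cells. It was 4.13-fold (3.75 to 4.53) higher in female than male germ cells, against the direction of Aurkb. Cdca8, which encodes borealin, stood at 74.3 (male) and 44.3 (female) SPM in germ and 32.05 and 11.1 in somatic cells, 1.68-fold (1.54 to 1.83) higher in male germ cells. Incenp, the scaffold, varied least of the complex at 40.5 (male) and 51.9 (female) SPM in germ and 89.3 and 41.6 in somatic cells. Thus in germ cells Aurkb was higher in the male and Birc5 in the female by over 4-fold, while in somatic cells the 4 genes measured above 5 SPM were between 2.14-fold and 2.97-fold higher in the male.

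Among genes of anaphase, Cdc20 and securin were higher in male germ cells and separase in female germ cells. Cdc20 (mm9, chromosome 4, 118105505 to 118109948), the activator held back by the checkpoint, stood at 101 (male) and 44.1 (female) SPM in germ cells and at 68.95 and 24.03 in somatic cells. The male germ library was highest, 2.29-fold (2.11 to 2.49) above the female one. Pttg1, which encodes securin, the inhibitor of separase, stood at 49.8 (male) and 23.2 (female) SPM in germ cells and at 35.6 and 16.7 in somatic cells, 2.15-fold (1.92 to 2.41) higher in male germ cells. Espl1, separase itself, stood at 146 (male) and 312 (female) SPM in germ cells and at 93.6 and 39.9 in somatic cells, 2.13-fold (2.04 to 2.22) higher in female germ cells. The inhibitor and its protease thus lay in opposite directions between germ cells and in the same direction between somatic cells.

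Fzr1 stood at 39.6 (male) and 32.3 (female) SPM in germ and 83.96 and 81.2 in somatic cells, so that the 2 somatic libraries were close and both above the germ libraries. The shugoshin genes protect centromeric cohesion, and Sgol2 is known for this role in meiosis. Sgol1 stood at 24.7 (male) and 39.7 (female) SPM in germ and 34.2 and 15.4 in somatic cells. Sgol2 stood at 56.3 (male) and 70.8 (female) SPM in germ and 39.9 and 13.5 in somatic cells. Both were below 2-fold between germ cells, and both were lowest in female somatic cells.

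Kinetochore genes held the largest difference between germ cells after that of Mki67. Spc24 (mm9, chromosome 9, 21559885 to 21564730), a subunit of the NDC80 complex, stood at 5.73 (male) and 55.2 (female) SPM in germ cells and at 33.5 and 12.8 in somatic cells. Nuf2 (mm9, chromosome 1, 171428064 to 171461595), another subunit, stood at 13.99 (male) and 71.1 (female) SPM in germ cells and at 48.6 and 11.3 in somatic cells. In female germ cells they were 9.63-fold (8.09 to 11.5) and 5.08-fold (4.52 to 5.72) higher than in male germ cells. Spc25, the partner of Spc24, stood at 48.3 (male) and 116 (female) SPM in germ and 51.4 and 11.4 in somatic cells, a 2.395-fold (2.23 to 2.57) difference between germ cells. Ndc80 itself stood at 132 (male) and 125 (female) SPM in germ and 60.1 and 21.6 in somatic cells and differed by 1.05-fold (0.993 to 1.11).

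The 4 subunits of this complex assemble in equal numbers, so their levels per length were set side by side, a comparison chosen after the values were seen. In male somatic cells they lay within 1.61-fold of each other, from 20.1 SPM per kb (Nuf2) to 32.4 (Spc25). In female germ and female somatic cells the highest exceeded the lowest by 2.48-fold and 2.09-fold. In male germ cells the range was 14-fold, from 4.23 SPM per kb for Spc24 and 5.78 for Nuf2 to 30.4 for Spc25 and 59.3 for Ndc80.

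Of the centromere genes, Cenpf, a large protein of the outer kinetochore, stood at 326 (male) and 635 (female) SPM in germ cells and at 158 and 58.5 in somatic cells. Both germ libraries lay above both somatic libraries, and female germ cells were 10.9-fold (10.3 to 11.5) above female somatic cells. Cenpe, the kinetochore kinesin, stood at 168 (male) and 149.6 (female) SPM in germ and 169 and 53.6 in somatic cells, so that the female somatic library alone was low. Cenpa, the centromeric histone variant, stood at 16.6 (male) and 11.8 (female) SPM in germ and 28.1 and 11.1 in somatic cells and was highest in male somatic cells. Cenph, of the constitutive inner kinetochore, stood at 17.8 (male) and 34.04 (female) SPM in germ and 10.98 and 5.65 in somatic cells, and both germ libraries were above both somatic ones.

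The 4 spindle motor and assembly genes were higher in female than male germ cells under all 3 scalings. Tpx2, which activates Aurora A and seeds microtubules, stood at 54.3 (male) and 212 (female) SPM in germ cells and at 174 and 64.1 in somatic cells, 3.905-fold (3.67 to 4.15) higher in female germ cells. Kif11, the kinesin that pushes spindle poles apart, stood at 142 (male) and 303 (female) SPM in germ cells and at 222 and 93.03 in somatic cells, 2.13-fold (2.04 to 2.22) higher there. Kif2c, which shortens microtubules at centromeres, stood at 97.4 (male) and 134 (female) SPM in germ and 107 and 40.4 in somatic cells. Nusap1, which bundles microtubules, stood at 25.4 (male) and 39.9 (female) SPM in germ and 62.1 and 32.6 in somatic cells. Neither reached 2-fold between germ cells.

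Condensin I genes varied by subunit. Smc4 (mm9, chromosome 3, 68808893 to 68838545), one of its ATPase arms, stood at 129 (male) and 529 (female) SPM in germ cells and at 146 and 68.7 in somatic cells. Female germ cells were the single high library, 4.11-fold (3.95 to 4.28) above male germ cells. Its partner arm Smc2 stood at 143 (male) and 201 (female) SPM in germ and 170.2 and 75.8 in somatic cells, a 1.41-fold (1.35 to 1.48) difference between germ cells. Ncapg stood at 299 (male) and 492 (female) SPM in germ cells and at 92.3 and 42.3 in somatic cells, with both germ libraries above both somatic libraries. Of the other regulatory subunits, Ncapd2 stood at 113 (male) and 117 (female) SPM in germ and 169 and 81.5 in somatic cells, 1.03-fold (0.976 to 1.09) apart between germ cells. Ncaph stood at 112 (male) and 79.6 (female) SPM in germ and 123 and 36.7 in somatic cells and was 1.402-fold (1.31 to 1.496) higher in male germ cells. The row of Ncapg overlaps Lcorl on the opposite strand by 3365 bases, and whether counting used strand was not given in the sources used here.

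Genes of the midzone and cytokinesis were led by centralspindlin and its partner. Kif23 (mm9, chromosome 9, 61765084 to 61794606), the motor of centralspindlin, stood at 61.2 (male) and 235 (female) SPM in germ cells and at 97.3 and 31.1 in somatic cells, 3.84-fold (3.62 to 4.07) higher in female than male germ cells. Ect2, the exchange factor that activates RhoA at the cleavage site, stood at 46.5 (male) and 131 (female) SPM in germ cells and at 49.03 and 21.2 in somatic cells, 2.82-fold (2.63 to 3.03) higher in female germ cells. The other centralspindlin gene, Racgap1, stood at 167 (male) and 274 (female) SPM in germ and 272 and 113 in somatic cells, a smaller difference of 1.64-fold (1.57 to 1.71). For both Kif23 and Ect2 female germ cells stood above all other libraries, and Ect2 stood near the male somatic level in male germ cells.

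Prc1, which bundles midzone microtubules, stood at 96.4 (male) and 124 (female) SPM in germ and 199.9 and 84.2 in somatic cells and was highest in male somatic cells. Anln, which encodes the ring scaffold anillin, stood at 206 (male) and 174 (female) SPM in germ and 105 and 33.7 in somatic cells, highest in male germ cells. Kif20a, the kinesin that brings the passenger complex to the midzone, stood at 261 (male) and 282 (female) SPM in germ and 262 and 119.8 in somatic cells, near equal in 3 libraries and low in female somatic cells. Its row overlaps Cdc23 by 1596 bases and Brd8 by 188 on the opposite strand, so its value is uncertain. Shorter overlaps were those of Nusap1 with Oip5 (209 bases) and Cdc20 with Elovl1 (17 bases).

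Of the 67 further pathway genes, 25 (37.3%) passed 2-fold towards female germ cells, against 26.3% of all genes, and 6 (8.96%) towards male germ cells, against 26.8%. Cenpk and Cenpm, of the constitutive inner kinetochore, reached 10.1 and 4.69 SPM in male but 95.1 and 33.7 in female germ cells, with the female higher by 9.46-fold (8.299 to 10.8) and 7.18-fold (5.901 to 8.78). Cenpt, which links centromeric DNA to the NDC80 complex, went the other way, at 71.6 and 9.86 SPM, 7.27-fold (6.19 to 8.56) higher in the male. Even inside the inner kinetochore the direction was therefore mixed. Anapc16, an APC/C subunit, stood at 13.5 and 81.6 SPM, a female level higher by 6.03-fold (5.36 to 6.78). Cdc26, another subunit, stood at 11.9 and 3.85 SPM, a male level higher by 3.11-fold (2.38 to 4.15). Mad2l1bp, which dismantles the checkpoint complex, stood at 14.9 and 3.99 SPM, with 3.73-fold (2.87 to 4.89) more in the male.

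Markers of other cells were also unequal between the germ libraries. Stroma markers summed to 209 (male) and 59.7 (female) SPM in germ cells (5 of 6 higher in the male), and erythroid markers to 296 and 94.3 (7 of 8, with Hbb-y at 0 in the female). Sertoli markers summed to 30.0 and 4.87 SPM (6 of 6, with Cst9 at 0 in the female). Pregranulosa markers summed to 26.5 and 32.9 SPM, with 1 of 6 higher in the male and Foxl2 at 0 there. A further list of 6 genes known from fetal male germ cells summed to 1106 (male) and 17.3 (female) SPM. All 6 were male-higher, with Nanos2 at 0 in the female. Most of the male sum came from Piwil4, at 568 and 2.98 SPM, and Dnmt3l, at 425 and 0.187. The cell cycle inhibitor genes of the list, Cdkn1b at 27.9 and 10.1 SPM and Cdkn2b at 9.965 and 3.51, differed less. The part of other cells in the sex difference of the mitotic genes was not tested.

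Set against somatic cells of the same sex, germ cells gave different pictures in the 2 sexes. In the male, 6 of 45 genes passed 2-fold towards germ cells (24.4% of 12636 genes) and 12 towards somatic cells (32.1%). By direction alone 18 were germ-higher (46% of all genes) and 27 somatic-higher (54%), and at 4-fold 2 (12.4%) and 4 (18.4%). Bub1 at 4.99-fold (4.63 to 5.39), Mad2l1 at 4.19-fold (3.79 to 4.64) and Ncapg at 3.24-fold (3.07 to 3.42) led the germ side, with Cdca8, Ndc80 and Cenpf between 2.07-fold and 2.32-fold. Mki67, Aurkb at 7.15-fold (6.31 to 8.09), Cdk1, Spc24 at 5.84-fold (4.87 to 7.02), Nuf2, Plk1, Tpx2, Birc5, Nusap1, Incenp, Fzr1 and Prc1 made up the somatic side. The median log2 ratio was -0.14, against -0.16 for all genes, and it turned to 0.04 with totals and 0.18 with upper-quartile scaling. With the upper quartile 10 genes were higher in germ and 8 in somatic cells.

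In the female, 31 of 45 genes passed 2-fold towards germ cells (27.2% of 12245 genes) and 3 towards somatic cells (34%). By direction alone 40 were germ-higher (49.4% of all genes) and 5 somatic-higher (50.6%), and at 4-fold 18 (12.5%) and 2 (23.6%). The median log2 ratio was 1.70, against -0.03 for all genes. Bub1, Ncapg at 11.6-fold (10.9 to 12.4), Cenpf, Spc25 at 10.1-fold (8.94 to 11.5) and Espl1 at 7.82-fold (7.301 to 8.37) had the largest ratios above 5 SPM. The 3 somatic-higher genes were Aurkb, Bub3 and Fzr1, the last at 2.51-fold (2.29 to 2.77). The 2 comparisons have no library in common, and the difference between them was not tested.

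When the 2 germ libraries were fitted together against the 2 somatic libraries, with the sexes as the samples of a cell type, few mitotic genes passed. Of 46 genes 2 rose in germ cells (2.5% of 14148 genes tested) and 0 fell (5.56%), by limma with Benjamini-Hochberg adjusted p under 0.05. At an unadjusted p under 0.05, 9 were higher (19.6%, against 12.7% of all genes) and 2 lower (4.35%, against 18.7%). Bub1 rose by 3.76 ± 0.75 on the log2 scale (SE, limma adjusted p = 0.0484, n = 2 libraries for each cell type). Aurkc rose by 2.94 ± 0.59 (limma adjusted p = 0.0484), a fitted value near the floor of the somatic libraries and no bound. Ncapg, at 2.61 ± 0.55, just missed (limma adjusted p = 0.0524), and passed with library totals alone and with upper-quartile scaling.

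Cenpf had 2.24 ± 0.64 and Mad2l1 2.18 ± 0.60 (limma adjusted p = 0.0878 and 0.0804). Aurkb, at -3.08 ± 0.997, was the lowest (limma adjusted p = 0.111). The errors were widest where the sexes parted in germ cells, as for Mki67 at -1.2 ± 1.37 and Spc24 at -0.19 ± 1.199. The median was 0.62 against -0.11 for all genes, with 34 of 46 above 0 (73.9% against 47% of all genes). Of the 67 further pathway genes 0 rose and 1 fell. That gene, named after its values were seen, was Cenpb, which encodes a protein that binds centromeric repeats, at 33.4 (male) and 21.6 (female) SPM in germ cells and at 247 and 247 in somatic cells (-3.18 ± 0.43, limma adjusted p = 0.0352). It did not pass with no filter, or without the male or the female somatic library.

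The calls of these 2 genes changed with the settings. Bub1 no longer passed without any 1 of the 4 libraries, with a pseudocount of 0.1 or 2 or with no filter, while its log2 ratio stayed between 2.93 and 4.59. Aurkc did not pass with either other scaling, with either other pseudocount, with no filter, or without the male or the female somatic library. Without the male germ library the members that passed were Aurkc and Mad1l1 as higher and Bub3 and Fzr1 as lower, and with sex as a term they were Aurkc, Bub1, Cenpf, Mad2l1 and Ncapg as higher and Aurkb as lower. Separate animals are not named in the labels, so these p-values reflect the spread among these 4 libraries alone, which within a cell type is the difference between the 2 sexes together with any technical spread.

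**Figure D5:**
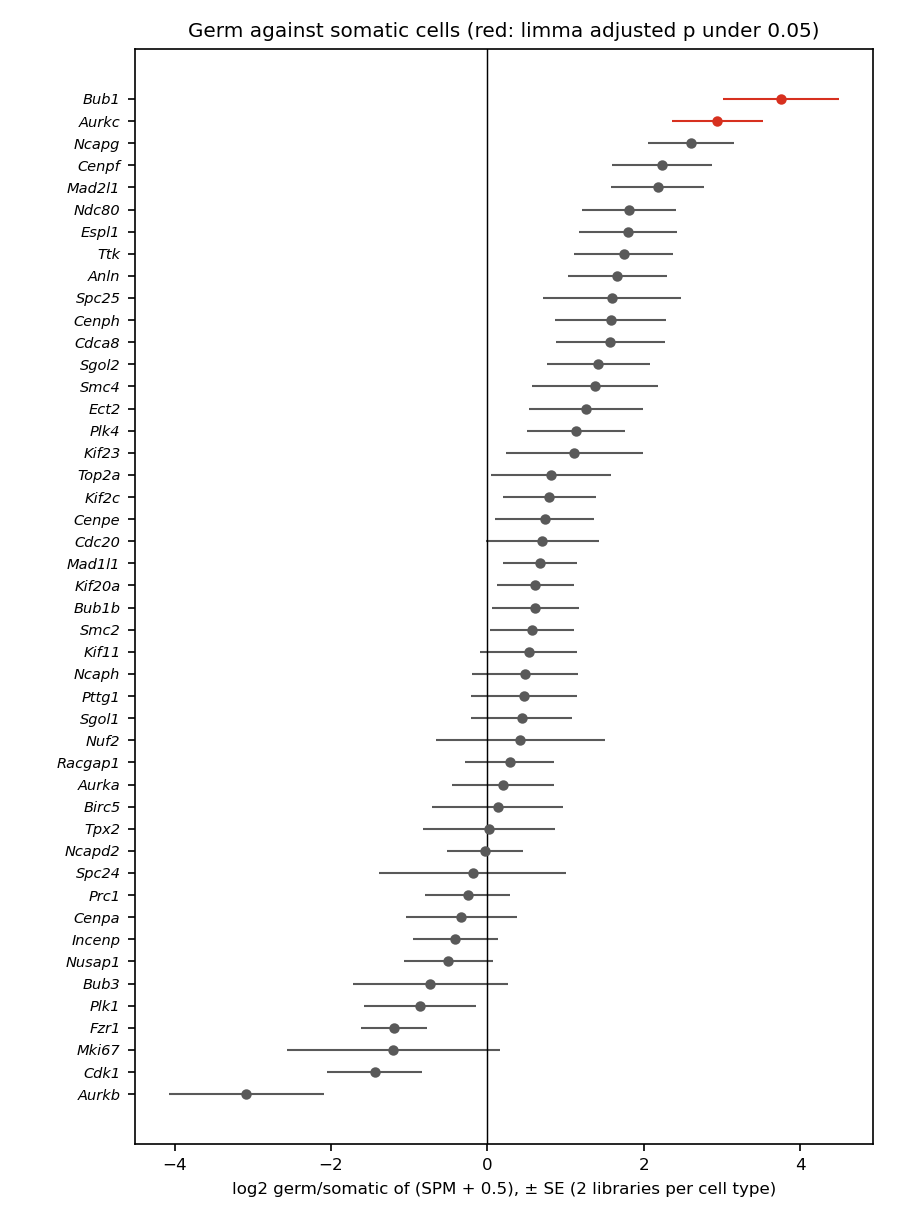
Log2 germ to somatic ratio of SPM + 0.5 for each of the 46 genes, with its SE from limma over 2 libraries per cell type; red marks an adjusted p under 0.05. Bub1 and Aurkc are red, 34 of 46 points lie above 0, and the bars of Mki67 and Spc24 are the longest.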

How the data were processed

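The 46 genes, their roles, the further pathway genes (72 listed, 67 found) and the marker lists were chosen with earlier results of these data known. The value of 1 erythroid marker is not reported here. Each file lists position, strand, symbol, length and a value for 20373 rows, of which 74 repeats were removed. Per the file headers the value column is named counts, but the deposited values are a scaled and rounded signal: low values cluster at spacings of 4.11 to 6.11, and the 4 library totals lie between 99.3 and 108 M. How the values were scaled, which program counted, its use of strand and the gene annotation were not given in the sources used here. Build mm9 and the tools TopHat 1.2.0, CASAVA 1.9 and edgeR (no version) come from the submitters' processing notes. This spacing was read as 1 fragment, and between 43.1% and 54.3% of values up to 60 lay on it, against 15.0% to 23.3% by chance, so fragment numbers are estimates. PCR copies cannot be told from separate molecules.

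Signals were divided by totals with trimmed-mean factors between 0.945 and 1.07, giving SPM. Levels compare libraries, and genes are compared only per kb of the listed length. Comparisons of 1 library with 1 were called at 2-fold and 5 SPM in the higher library, with no p-value. Log2 ratios of lists use a pseudocount of 0.5 SPM and understate the differences of low genes. Both germ libraries were set against both somatic libraries with limma 3.58.1 (R 4.3.3), with its trend option, on log2(SPM + 0.5), over genes at 1 SPM in at least 2 libraries, with 2 residual degrees of freedom, Benjamini-Hochberg adjustment over all genes tested and a threshold of 0.05. The script was tested on simulated data. All members were named by role, and of the further pathway genes the 3 largest germ cell ratios in each direction. Motifs were searched on both strands of RefSeq promoters, with Sgol1 and Sgol2 matched through synonyms and Aurkb, Incenp, Spc24, Tpx2, Smc4 and Kif20a left out. Tools were Python 3.11.15, numpy 2.4.6, pandas 2.3.3 and scipy 1.17.1. Alternatives were other scalings, pseudocounts of 0.1 and 2, no filter, sex as a term, 4-fold, minimums of 1 and 20 SPM, and leaving out each library.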

Additional observations from a re-analysis of the deposited data

Results flagged for a closer look

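For 15 genes the ratio of male to female was at least 2-fold towards the female in germ cells and at least 2-fold towards the male in somatic cells. The same held for 1.82% of 10345 genes at 5 SPM in both comparisons. With library totals alone it held for 10 of the mitotic genes (1.15% of all genes) and with upper-quartile scaling for 9 (1.26%), so that Ttk, Cdk1, Espl1 and Kif11 were lost with either, Smc4 with totals, and Bub1 and Spc25 with the upper quartile. Each group is 1 library, and the difference between the cell types was not tested. The libraries on the high side, female germ and male somatic, had 17.5 and 17.61 M estimated fragments and low-value spacings of 6.065 and 6.105. Those on the low side, male germ and female somatic, had 24.9 and 24.2 M and a spacing of 4.105 each. Trimmed-mean factors were 0.956 and 0.945 against 1.07 and 1.035. The pattern thus cannot be told apart from this grouping by depth and scaling, whose part was not tested. The germ cell log2 ratio minus the somatic one was -5.43 for Mki67 and -3.02 for Top2a. Among kinetochore genes it was -4.52 for Spc24, -4.36 for Nuf2 and -3.37 for Spc25, and for the checkpoint kinases -2.9 for Bub1 and -2.22 for Ttk. It was -3.39 for Tpx2 and -2.33 for Kif11 of the spindle, -3.15 for Birc5, -2.31 for Espl1 and -2.2 for Cdk1, -3.12 for the condensin gene Smc4, and -3.56 for Kif23 and -2.68 for Ect2 of cytokinesis.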

How the results depend on the processing

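By limma over all genes, 354 rose and 786 fell in germ cells; without the filter 0 and 0 did (2025 and 2600 at an unadjusted p under 0.05), with sex as a term 1094 and 1955, and with 1 library left out between 37 and 1670 rose and between 21 and 1927 fell. Fewest passed without the female or the male somatic library, and most without the male germ library. Of the mitotic genes 2 rose; 0 did with a pseudocount of 0.1 or 2 or without the filter, 5 did with sex as a term, and 0 to 2 with 1 library left out. None fell, against 1 with sex as a term and 0 to 2 with 1 library left out. Of germ cell differences past 2-fold, 4 were male-higher (26.8% of all genes), 8 with upper-quartile scaling and 2 at 4-fold (14% of all genes at 4-fold). Female-higher were 15 (26.3% of all genes), 9 with upper-quartile scaling and 5 at 4-fold (10% of all genes). In somatic cells 39 were male-higher at 2-fold (9.61% of all genes) and 2 at 4-fold (3%). By any size 0 were female-higher (49.2% of all genes), against 2 with library totals and 1 with upper-quartile scaling. Between male germ and male somatic cells 6 were germ-higher (24.4% of all genes), 10 with upper-quartile scaling and 2 at 4-fold (12.4%). Somatic-higher were 12 (32.1%) and 4 at 4-fold (18.4%). The median log2 ratio of -0.135 reversed to 0.043 with totals and 0.18 with upper-quartile scaling. Between the female libraries 31 were germ-higher (27.2% of all genes) and 18 at 4-fold (12.5%). The cause of these changes was not tested, except that 4-fold is by its construction the stricter rule. Minimums of 1 and 20 SPM kept every 2-fold count within 1.5 times. For the other scalings and minimums the share of all genes past 2-fold in a single comparison was not counted. No paired analysis was possible because the labels give no replicate numbers to pair by, other than the fit above with sex as a term, which pairs the 2 cell types of each sex and leaves 1 residual degree of freedom. Where 1 library of a cell type was left out, the remaining one was assumed to vary like the others. With 1 library per group no ratio between sexes has a replicate error. Depth limits Aurkc, at 2 fragments in each somatic library, and to a lesser degree Aurkb, at 38 in female germ cells. Plk1 stayed under 20 SPM in all libraries, with 148 to 311 estimated fragments.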

Other observations

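The 5 genes of condensin I were also compared per length, after their values were seen. In male and female somatic cells the highest exceeded the lowest by 1.83-fold and 1.58-fold, and in male and female germ cells by 3.23-fold and 5.14-fold. Ncapg was the lowest per kb in both somatic libraries, at 24.8 and 11.4 SPM per kb in male and female, and the highest in both germ libraries, at 80.4 and 132. Lcorl, whose row overlaps that of Ncapg by 3365 bases on the other strand, stood at 80.5 (male) and 141 (female) SPM in germ cells and at 44.2 and 74.6 in somatic cells. The part of these reads in the value of Ncapg was not tested.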
